A study of Mus musculus with 6 samples.

Results

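The probes described here are those that the array's annotation assigns to 2 or more gene symbols. They were found by counting the symbols listed for each row of the value table, without reference to any measured value. There were 1621 such shared probes among 35556 probes, or 4.559%, beside 21789 probes with exactly 1 symbol and 12146 with none. Their RNA came from N2A cells, a mouse neuroblastoma line. The cells had been transiently transfected with an shRNA construct against Pbcas4, a transcribed mouse pseudogene of the breast carcinoma amplified gene BCAS4 (3 arrays), or with a construct carrying a scrambled control sequence (3 arrays). All 6 cultures thus shared the cell line, the transfection reagent and the expression of a hairpin, and 1 scrambled oligo served as the control. The arrays were Affymetrix Mouse Gene 1.0 ST arrays, and each value is the authors' log2 value of 1 probe on 1 array. The annotation names Pbcas4 on no probe, so its own level was not analysed here. The paper reports by quantitative PCR that the shRNA lowered it.

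The transfections were made in triplicate, and each p measures the spread between them. Array medians lay between 7.75 and 7.86, and the medians over the shared probes lay between 8.01 and 8.13. Of 9 sympathoadrenal neuroblastoma markers, 8 had a probe of their own and all 8 lay above the median probe. The mean over these markers lay between 11.17 and 11.42 with the shRNA and between 11.65 and 11.97 with the scramble. Of the 8, 7 had a lower mean with the shRNA. By limma, 3 were lower by over 0.5 at an unadjusted p under 0.05, where 1.85% of all probes were. These were Th, the first enzyme of catecholamine synthesis (-1.08, adjusted p = 0.363), Dbh (-1.34, adjusted p = 0.433) and Chgb (-1.01, adjusted p = 0.297). The groups overlapped for Dbh. The numbers of markers above the median probe were 3 of 5 for fibroblasts, 1 of 5 for macrophages, 1 of 4 for epithelia and 1 of 3 for glia. Since RNA was taken from whole cultures, fewer cells of a kind and less RNA per cell cannot be told apart.

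On an array of this type, short DNA oligos capture labelled cDNA, and the oligos for one transcript are combined into one value. Where genes are copies of one another, the same oligos match several of them, and the value reports the copies together. Genes can also share a probe because their transcripts overlap on the chromosome, as a small RNA does with the transcript that hosts it. Gene families of this kind are well known in the mouse. Replication-dependent histone genes lie in clusters, are transcribed as cells copy their DNA, and give messages that end in a stem-loop in place of a poly(A) tail. Classical and non-classical MHC class I genes lie side by side and encode the heavy chains that present peptides. Genes for ribosomal proteins and for Gapdh have left many processed pseudogenes.

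The members covered both situations. Of the 1621, 725 listed 2 symbols, 294 listed 3, 445 listed 4 to 9 and 157 listed 10 or more, with a median of 3 and a maximum of 20. On 8 of them the same name was listed more than once. They carried 2024 different symbols in 798 combinations. Of these symbols, 627 also had a probe that listed them alone, and 1397 had none. By RefSeq, 2007 of the 2032 gene identifiers were found, of which 1632 were protein-coding, 159 were pseudogenes, 66 were long non-coding RNAs, 64 were microRNAs and 20 were small nucleolar RNAs. Among the 1585 probes whose identifiers were all placed, the genes lay on 1 chromosome for 1052 probes, with overlapping genes for 121 of these, and on several chromosomes for 533. A pseudogene was listed on 474 probes. The members were not all separate measurements: 259 of them repeated the 6 values of another member to 6 decimals, in 93 groups, so that there were 1455 different value sets. The largest group held 18 probes for Snord116l2, Snord116l1 and Gm26504.

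Sequences are given for the probe with the lowest p among all members, that of Mir344 and Mir344-2, and for 3 histone genes whose families are described further on. Mir344 and Mir344-2 lie on the minus strand of chromosome 7 (GRCm38.p6, RefSeq), and their mature products have the same letters at both loci. These are shown 5′ to 3′ with the seed, bases 2 to 8, in capitals.
mmu-miR-344-5p: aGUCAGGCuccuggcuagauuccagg
mmu-miR-344-3p: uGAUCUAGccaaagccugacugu
The 5p products lie at chr7:61877819-61877844 for Mir344 and chr7:61940073-61940098 for Mir344-2, and the 3p products at chr7:61877782-61877804 and chr7:61940036-61940058. The annotated hairpins, at chr7:61877770-61877864 and chr7:61940027-61940106, are shown with both mature products in capitals, because the annotation assigns the probe to both loci. Which RNA from these loci its oligos capture was not examined.
Mir344 hairpin: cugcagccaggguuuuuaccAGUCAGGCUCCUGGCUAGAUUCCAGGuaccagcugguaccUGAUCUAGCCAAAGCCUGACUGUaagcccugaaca
Mir344-2 hairpin: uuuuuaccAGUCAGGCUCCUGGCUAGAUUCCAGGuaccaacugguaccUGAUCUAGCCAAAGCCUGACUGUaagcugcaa
Over the 80 bases that both cover, 75 were the same. The substitutions were G52A in the loop and C88U, C89G, U90C and G91A after the 3p product, counted from 1 at the 5′ end of the Mir344 hairpin and with its base written first. Of 64 microRNA symbols on shared probes, 37 were in the RefSeq table used.

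The core histone symbols on shared probes numbered 54, of which 51 had a RefSeq promoter window. There were 52 windows, 45 on chromosome 13 and 7 on chromosome 3, and each was read over the 250 bases before the start. Of 15 H2B windows, 9 overlapped the window of an H2A gene on the other strand. One promoter each of an H2B, an H3 and an H4 gene is shown on the plus strand (GRCm38.p6), with the CCAAT box (CCAAT), the TATA box (TATAAA) and the octamer (ATTTGCAT) in capitals on either strand.
H2bc12 promoter, chr13:22035571-22035820: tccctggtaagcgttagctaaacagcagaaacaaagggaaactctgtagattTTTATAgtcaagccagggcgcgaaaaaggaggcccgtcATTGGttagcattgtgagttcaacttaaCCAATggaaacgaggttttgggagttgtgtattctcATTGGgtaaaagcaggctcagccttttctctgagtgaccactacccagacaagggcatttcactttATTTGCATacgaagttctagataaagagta
H3c10 promoter, chr13:21717378-21717627: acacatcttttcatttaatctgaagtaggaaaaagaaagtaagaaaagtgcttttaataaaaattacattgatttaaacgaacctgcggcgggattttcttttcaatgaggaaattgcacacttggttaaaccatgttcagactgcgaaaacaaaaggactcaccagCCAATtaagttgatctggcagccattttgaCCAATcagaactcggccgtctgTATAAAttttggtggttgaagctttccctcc
H4c17 promoter, chr13:21811496-21811745: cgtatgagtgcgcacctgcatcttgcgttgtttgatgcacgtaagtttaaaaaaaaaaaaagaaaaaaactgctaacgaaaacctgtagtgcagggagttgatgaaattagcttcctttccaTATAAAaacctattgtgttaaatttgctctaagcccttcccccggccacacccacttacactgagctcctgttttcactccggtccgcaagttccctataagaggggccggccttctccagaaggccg
CCAAT was found in 42 of the 52 histone windows (80.8%) and in 33.8% of all 32851 promoter windows of the same length. It was present in 16 of 16 H2A windows, 15 of 15 H2B windows, 8 of 10 H3 windows and 3 of 11 H4 windows. TATAAA was found in 23 of 52 histone windows (44.2%) against 12.4% of all windows. ATTTGCAT was found in 11 of 52 (21.2%) against 1.6% of all windows, in 5 H2A and 6 H2B windows and in 0 of the H3 and H4 windows. The 3 motifs did not overlap one another in the promoters shown. Such matches are letters in a window and describe no binding.

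No shared probe passed the criterion of the study's methods, read as an adjusted p under 0.05 and condition means more than 0.5 apart in log2. By limma, 0 of 1621 members were called and 0% of all probes, also 0% without the size criterion, and the lowest adjusted p of a member was 0.340. The paper itself reports differentially expressed genes by limma on these arrays, more of them lower than higher. Why the fit here called none was not tested. With array weights in limma, 38 members were called (24 higher and 14 lower), against 5.57% of all probes. The members are therefore described at an unadjusted p under 0.05. With a difference over 0.5, 6 members (0.37%) had a higher mean with the Pbcas4 shRNA, where 1.33% of all probes did, and 7 (0.432%) had a lower mean, where 1.85% of all probes did. Both counts of members were thus below the background. Without the size criterion the counts were 64 higher (3.95%) and 31 lower (1.91%), against 4.97% and 5.17% of all probes. The 3 shRNA arrays lay wholly above the 3 scramble arrays for 109 members (6.72%) and wholly below them for 129 (7.96%), against 7.39% and 7.35% of all probes. An exact permutation test on 1 probe cannot go below p = 0.1 with 3 arrays against 3.

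The differences of the members were small. Their median difference was -0.00, beside -0.01 over all probes, and the median size of a difference was 0.08 against 0.10 for probes with 1 symbol. From the 5th to the 95th percentile, the differences ran from -0.26 to 0.30 for members and from -0.38 to 0.38 for probes with 1 symbol. Mean levels ran from 3.11 to 14.90, with 445 members over 12 and 642 under 7. The split of 6 higher and 7 lower (46.2% higher) moved with the scaling, to 14 and 4 (77.8% higher) after centring on the array median and to 7 and 5 (58.3%) after quantile normalization. It also moved with single arrays: without scramble replicate 1 the counts were 45 higher and 15 lower, without scramble replicate 2 they were 1 and 5, and without scramble replicate 3 they were 2 and 6. Leaving out shRNA replicates 1, 2 and 3 gave 11, 12 and 4 lower members. With the replicate number as a block, which sets arrays of the same number against each other, 7 members were higher and 9 lower, against 1.86% and 2.52% of all probes.

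**Figure D1:**
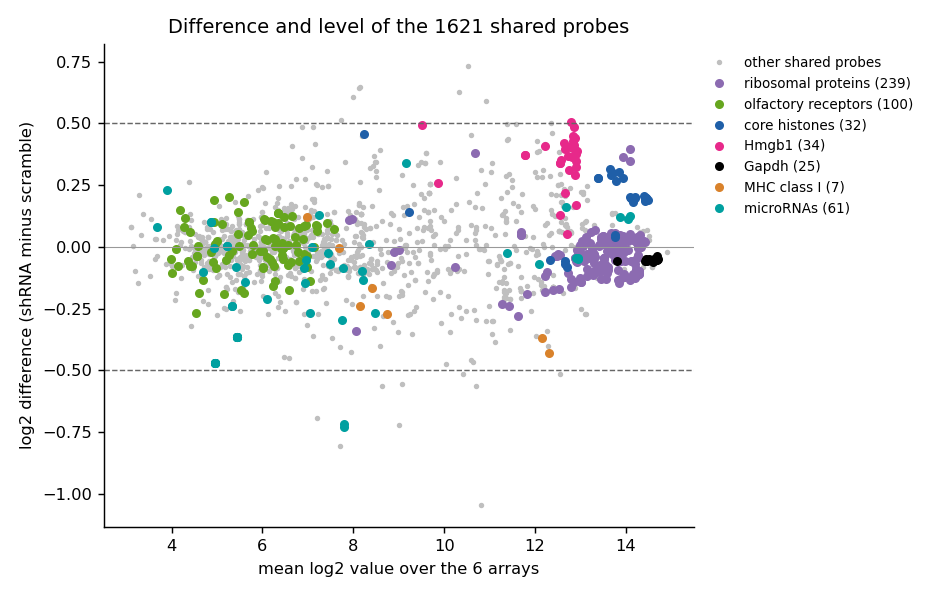
Difference between the mean of 3 Pbcas4 shRNA and 3 scramble arrays (y axis, log2) against the mean log2 value over the 6 arrays (x axis) for the 1621 shared probes, with 7 families in colour and dashed lines at differences of 0.5. Gapdh probes sit between -0.06 and -0.04 at the bright end, core histone and Hmgb1 probes mostly above 0, MHC class I probes mostly below 0, and 20 members lie beyond the dashed lines.

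Among the 7 members with a lower mean was the probe of Gprasp2 and Gprasp1, sorting proteins that bind G protein-coupled receptors. It read 9.86, 10.61 and 10.37 with the Pbcas4 shRNA and 11.04, 11.40 and 11.53 with the scramble, and each shRNA array lay below each scramble array. The difference was -1.04 (SE 0.22), a 2.06-fold lower mean (10.28 ± 0.39 against 11.32 ± 0.25, SD, n = 3), at adjusted p = 0.348. Leaving out 1 array at a time moved it between -1.21 and -0.83.

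Mir344 and Mir344-2, whose hairpins are printed above, were measured by 2 probes. The first read 7.55, 7.37 and 7.37 with the Pbcas4 shRNA and 8.07, 8.11 and 8.30 with the scramble. The second read 7.57, 7.38 and 7.37 against 8.13, 8.08 and 8.26. On both probes the 3 shRNA arrays lay close together and below every scramble array. Their mean level, 7.795, was just under the median of 7.828 over all probes, so the fit without dim probes left both out. The differences were -0.73 (SE 0.10) and -0.72 (SE 0.10), each with adjusted p = 0.340. Since both probes list the same 2 loci, they are not 2 independent observations.

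Irgm2 and Igtp encode interferon-inducible GTPases that act against intracellular pathogens. Their probe read 6.94, 7.63 and 7.35 with the Pbcas4 shRNA and 7.44, 8.33 and 8.58 with the scramble. Scramble replicate 1 lay within the range of the shRNA arrays, so the groups overlapped, and the difference was -0.81 (SE 0.32, adjusted p = 0.474). It was -1.14 without scramble replicate 1 and -0.58 without scramble replicate 3, where its unadjusted p was over 0.05. The probe of Zfp442, Zfp937 and 3300002I08Rik, of which the first pair are zinc finger proteins, read 10.81, 10.06 and 10.35 against 11.02, 10.95 and 10.93, a difference of -0.56 (adjusted p = 0.431). The scramble arrays were close together and the shRNA arrays spread, as they were for Slc10a4 and its transcribed pseudogene Slc10a4l. Slc10a4 is a transporter of synaptic vesicles, and the probe read 12.62, 12.06 and 12.17 against 12.82, 12.74 and 12.83 (difference -0.52, adjusted p = 0.402). The last of the 7 was the probe of Wdr77, a partner of the arginine methyltransferase Prmt5, and Ovgp1, an oviduct glycoprotein, at 8.12, 8.46 and 8.47 against 8.55, 8.83 and 9.36 (difference -0.56, adjusted p = 0.469). It was -0.34 without scramble replicate 3.

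Among the 6 members with a higher mean, the probe of Cpne1 and Rbm12 had the lowest p. Cpne1 is a calcium-dependent membrane-binding protein and Rbm12 an RNA-binding protein, and by RefSeq the 2 genes overlap on their chromosome. The probe read 11.04, 10.83 and 10.78 with the Pbcas4 shRNA and 10.20, 9.98 and 10.28 with the scramble, with no overlap. The difference was 0.73 (SE 0.12), a 1.66-fold higher mean, at adjusted p = 0.340, and it stayed between 0.65 and 0.80 when any 1 array was left out. It was the single case of overlapping genes among the 13 members past the unadjusted criterion. On 5 of the 13 a pseudogene was listed, and on 3 the genes lay on several chromosomes.

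Ube2f, an enzyme that conjugates the ubiquitin-like protein Nedd8, shared its probe with the transcribed pseudogene Gm5434. The values were 11.05, 11.25 and 11.31 against 10.81, 10.38 and 10.64, with no overlap and a difference of 0.59 (SE 0.14, adjusted p = 0.363). Gxylt1, which adds xylose to O-glucose on Notch, shared its probe with the pseudogene Gm11821 and read 10.30, 10.80 and 10.81 against 10.47, 9.79 and 9.78. Scramble replicate 1 lay above shRNA replicate 1, the difference was 0.63 (adjusted p = 0.461), and with the replicate number as a block its unadjusted p was over 0.05. The probe of the long non-coding RNAs 4930521O11Rik and 1700110I01Rik read 7.76, 8.38 and 8.75 against 7.73, 7.72 and 7.61, a difference of 0.60 (adjusted p = 0.472). Its shRNA replicate 1 was close to the scramble arrays, and the difference was 0.87 without that array and 0.38 without shRNA replicate 3.

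**Figure D2:**
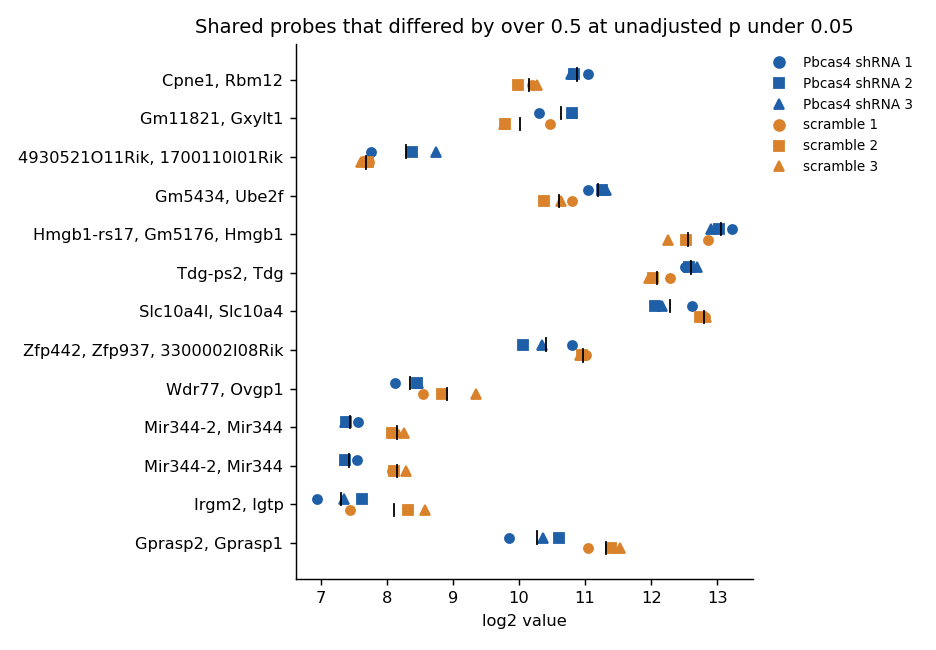
Log2 value (x axis) on each of the 6 arrays for the 13 shared probes with an unadjusted p under 0.05 and a difference over 0.5; blue marks are Pbcas4 shRNA arrays, orange marks scramble arrays, shapes give the replicate number and black bars the group means (n = 3). The groups do not overlap on 11 of the 13, and scramble replicate 1 overlaps the shRNA arrays on the probes of Irgm2 and Igtp and of Gxylt1. Over all probes 7.39% lay wholly above and 7.35% wholly below. Because the 13 were chosen by their difference on these same arrays, the separation is no further evidence.

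Tdg, the thymine DNA glycosylase that starts base excision repair at mismatched or oxidized bases, was on 4 members together with its transcribed pseudogene Tdg-ps2. The probe past the size criterion read 12.51, 12.58 and 12.70 with the Pbcas4 shRNA and 12.28, 12.03 and 11.97 with the scramble, a difference of 0.50 (SE 0.11, adjusted p = 0.359). The 4 probes had differences of 0.42 to 0.50, and all 4 had an unadjusted p under 0.05, where 4.97% of all probes were higher at that p. None overlapped between the groups, where 7.39% of all probes lay wholly above. All 4 list the same genes and are not independent of one another. Without scramble replicate 3 the difference of the first was 0.44, under the size criterion.

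Hmgb1, an abundant chromatin protein that bends DNA, was listed on 34 members with its retroposed copies. All 34 had a higher mean with the shRNA, with differences of 0.05 to 0.50 and a median of 0.38, where the median over all probes was -0.01. Of these, 9 had an unadjusted p under 0.05, against 4.97% of all probes that were higher at that p, and 9 lay wholly above the scramble arrays, against 7.39%. With the replicate number as a block the count was 29, against 5.91%. All 34 list the same gene and are not independent of one another. The 1 past the size criterion, shared with Hmgb1-rs17 and Gm5176, read 13.23, 13.03 and 12.91 against 12.86, 12.53 and 12.26 (difference 0.50, SE 0.17, adjusted p = 0.431). The medians over the 34 probes were 13.16, 12.93 and 12.91 with the Pbcas4 shRNA and 12.89, 12.63 and 12.30 with the scramble, so that scramble replicate 1 came near the shRNA arrays and scramble replicate 3 lay lowest. The difference of the first was 0.36 without scramble replicate 3. The 1 probe that lists Hmgb1 alone read 10.14, 9.38 and 9.55 against 10.19, 9.65 and 9.20, a difference of 0.01 (adjusted p = 0.996).

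RNA-binding and splicing proteins were listed on 31 members, and 30 had a higher mean with the shRNA. The median difference was 0.21. Of the 31, 12 were higher at an unadjusted p under 0.05, where 4.97% of all probes were, and 15 lay wholly above the scramble arrays, where 7.39% of all probes did. With the replicate number as a block the count was 8, against 5.91% of all probes. The 31 probes held 13 combinations of symbols, and those of one gene are not independent of one another. The 4 probes of Pabpc4, a cytoplasmic poly(A)-binding protein, and Gm12620 had differences of 0.43 to 0.50 (adjusted p = 0.426 to 0.431), and their medians were 11.73, 11.54 and 11.63 against 11.50, 10.97 and 11.08. Every shRNA array lay above every scramble array there. Hnrnph3, a splicing factor, shared a probe with Aff3 that read 10.86, 10.84 and 10.74 against 10.52, 10.22 and 10.34, a difference of 0.45 (SE 0.10, adjusted p = 0.363).

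Core histone genes were listed on 32 members with 30 different value sets. With the 6 probes of the replacement histone H3.3 left out, all 26 others had a higher mean with the shRNA, by 0.14 to 0.46, with a median of 0.20 (0.23 after centring and 0.21 after quantile normalization). None of the 32 had an unadjusted p under 0.05, and 7 (21.9%) lay wholly above the scramble arrays, against 7.39% of all probes. Of the 7, 5 were H2B probes that list largely the same genes, so the 7 are not independent of one another. H3 genes were on 12 probes, of which 10 listed 12 H3 genes each and the other two were the H2A probes, whose lists also hold an H3 gene. The medians of the 12 were 14.48, 14.51 and 14.58 with the Pbcas4 shRNA and 14.52, 14.32 and 14.16 with the scramble.

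The other core histones were ordered in the same way by array. The 5 probes that list 11 H4 genes had medians of 14.20, 14.18 and 14.24 against 14.20, 14.02 and 13.81, with differences of 0.20 each. The 7 probes that list 14 or 15 H2B genes had medians of 13.84, 13.78 and 13.84 against 13.76, 13.55 and 13.27, with differences of 0.28 to 0.32. The first of the 2 H2A probes, with 20 symbols, read 14.29, 14.28 and 14.36 against 14.28, 14.07 and 13.98 (difference 0.20, SE 0.10, adjusted p = 0.581), and the second, with 19, read 13.91, 13.91 and 13.96 against 13.85, 13.66 and 13.48 (difference 0.27, SE 0.11, adjusted p = 0.495). In each set the 3 shRNA arrays lay close together, scramble replicate 1 lay among or just under them, and scramble replicate 3 lay lowest. The median over all 32 was 0.11 without scramble replicate 3 and 0.29 without scramble replicate 1.

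The probe of H4c17 and H4c11, whose H4c17 promoter is printed above, had the largest difference of a core histone probe. It read 8.53, 8.38 and 8.50 against 8.63, 7.83 and 7.57, a difference of 0.46 (SE 0.26, adjusted p = 0.631), with scramble replicate 1 above all shRNA arrays. It was 0.77 without that array and 0.24 without scramble replicate 3. The 1 linker histone member, listing H2bc6 and H1f4, read 9.31, 9.23 and 9.37 against 9.42, 9.11 and 8.96 (difference 0.14, adjusted p = 0.822).

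H3.3, which is made throughout the cell cycle, is encoded by H3f3a and H3f3b. The 4 probes of H3f3a with Gm12657 had differences of -0.08 to -0.05 and the 2 of H3f3b with Gm6485 differences of 0.04 and 0.05, at adjusted p of 0.891 to 0.950, and all overlapped between the groups. The 14 probes of testis-specific H2A.L histones, at levels of 6.67 to 7.53, had a median difference of 0.09 with 0 at an unadjusted p under 0.05.

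Histone genes with a probe of their own and genes of the histone pathway were set beside the shared probes. Of 23 single-symbol probes of H2A, H2B, H3 and H4 genes, 21 had a higher mean with the shRNA, with a median of 0.26, 1 had an unadjusted p under 0.05 and 0 passed the size criterion with it. H2bc14, for example, read 12.88, 12.90 and 13.02 against 12.91, 12.35 and 11.98 (difference 0.52, adjusted p = 0.510). The linker histone H1f2 had a lower mean, at 10.46, 10.66 and 10.71 against 11.32, 11.33 and 11.30 (difference -0.70, SE 0.09, adjusted p = 0.337), while H1f1 and H1f5 had differences of 0.56 and 0.59 (adjusted p = 0.560 and 0.529).

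Of 22 genes of histone supply and nucleosome assembly, 21 had a higher mean, with a median of 0.52. Past the unadjusted criterion were 3, and 11 with the replicate number as a block, all higher, against 1.33% and 1.86% of all probes. The 3 were Asf1b, a histone chaperone (0.91, adjusted p = 0.472), Hat1, the acetyltransferase of newly made H4 (0.76, adjusted p = 0.437), and Hells, a chromatin remodeller (0.96, adjusted p = 0.468). Slbp, which binds the histone stem-loop, was at 0.53 (adjusted p = 0.506) and Npat, the activator of histone transcription, at 0.38 (adjusted p = 0.483). Of 9 variant and replication-independent histones with a probe of their own, 9 had a higher mean, with a median of 0.24 and 0 past the criterion (1 with the replicate number as a block).

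The 25 measured genes of DNA replication and S phase were ordered by array much as the histones were. All 25 had a higher mean with the shRNA, with a median of 0.68. Past the unadjusted criterion were 6 of them, and 21 with the replicate number as a block, against 1.33% and 1.86% of all probes. Their mean was 11.69, 11.43 and 11.47 with the Pbcas4 shRNA and 11.57, 10.64 and 10.15 with the scramble, so that scramble replicate 1 lay within the shRNA arrays and scramble replicate 3 lay lowest. The same was so of the H3 and H4 medians, while for H2B scramble replicate 1 lay just below the shRNA arrays. The part of the replication genes in the histone values was not tested.

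**Figure D3:**
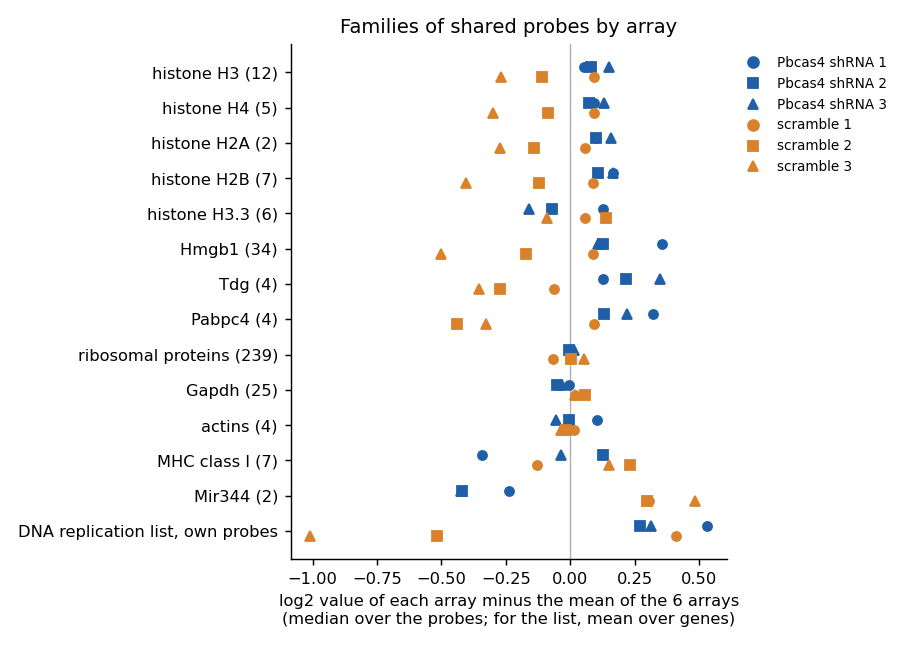
Log2 value of each array minus the mean of the 6 arrays (x axis) for 13 sets of shared probes, each as the median over its probes (number in parentheses), and for 25 DNA replication genes with a probe of their own, as the mean over genes; blue marks are Pbcas4 shRNA arrays and orange marks scramble arrays. For H3, H4 and the replication genes scramble replicate 1 sits with the shRNA arrays, for H2B just below them, ribosomal proteins and Gapdh sit close to 0, and for Mir344 the groups are apart.

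MHC class I heavy chains were listed on 7 members, and 6 had a lower mean with the shRNA. The median difference was -0.24. At an unadjusted p under 0.05, 1 was lower, where 5.17% of all probes were. The groups overlapped on all 7, where 7.35% of all probes lay wholly below. The classical genes H2-K1 and H2-D1, with LOC547349, had 2 probes. The first read 11.74, 12.30 and 12.23 with the Pbcas4 shRNA and 12.29, 12.59 and 12.68 with the scramble (difference -0.43, SE 0.18, adjusted p = 0.493). The second read 11.60, 12.25 and 12.06 against 11.94, 12.50 and 12.58 (difference -0.37, SE 0.23, adjusted p = 0.667). On both, shRNA replicate 1 was lowest, and scramble replicate 1 lay within the range of the shRNA arrays. Without shRNA replicate 1 the differences were -0.26 and -0.19. With the replicate number as a block, both had an unadjusted p under 0.05.

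The other 5 probes were of non-classical or neighbouring class I genes. That of H2-T9, H2-T22 and H2-T10 was at -0.27, that of H2-Q1 and H2-Bl at -0.24, that of H2-T23 and H2-T-ps at -0.17, that of H2-Q6 and H2-Q8 at -0.00 and that of H2-T3 and H2-T18 at 0.12, with adjusted p of 0.637 to 0.996. After quantile normalization or centring, 2 of the 7 had a higher mean. Of 20 class I probes with 1 symbol, 14 had a lower mean, with a median of -0.07 and a range of -0.50 to 0.15. The 1 past the unadjusted criterion, where 1.85% of all probes were lower, was H2-Q5 (-0.50, SE 0.19, adjusted p = 0.461).

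A list of class I assembly genes was also set beside them. It held loading genes but also proteasome genes, transcription regulators such as Irf1 and Ciita, and Cd1d1 and Mr1. Of 21 measured, 17 had a lower mean, with a median of -0.22. At an unadjusted p under 0.05, 7 were lower (33.3%), against 5.17% of all probes. Wholly below the scramble arrays lay 38.1%, against 7.35% of all probes. The 1 past the size criterion as well, where 1.85% of all probes were lower, was Tapbp, the chaperone tapasin. It read 10.32, 10.94 and 10.69 against 11.08, 11.47 and 11.52 (difference -0.71, SE 0.19, adjusted p = 0.393). B2m, the light chain, was at -0.22 (adjusted p = 0.461) and Irf1, a transcription factor of the pathway, at -0.48 (adjusted p = 0.344). Psme2, a subunit of the proteasome activator, had a shared probe with Psme2b that read 10.87, 10.97 and 10.93 against 11.41, 11.37 and 11.13 (difference -0.38, SE 0.10, adjusted p = 0.394) and a probe of its own at -0.30 (adjusted p = 0.413). On both Psme2 probes every shRNA array lay below every scramble array. The 7 interferon-induced members, which include Irgm2 and Igtp, had a median difference of -0.09, and apart from that probe their unadjusted p was above 0.05. The macrophage markers had means of 6.42 to 6.63 with the Pbcas4 shRNA and 6.52 to 6.62 with the scramble.

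Gapdh, the glycolytic enzyme often used as a reference gene, had no probe of its own. It was listed on 25 members with 3 to 7 other symbols, at mean levels of 13.81 to 14.70. The differences lay between -0.06 and -0.04 (adjusted p = 0.888 to 0.944), with a median of -0.05. The median values were 14.59, 14.54 and 14.56 with the Pbcas4 shRNA and 14.61, 14.65 and 14.61 with the scramble. On 24 of the 25 every shRNA array lay below every scramble array, where 7.35% of all probes did, a separation of hundredths of a log2 unit. The 25 probes had 20 different value sets and report largely the same transcripts. After centring, the median was -0.02, and after quantile normalization 1 of the 25 had a higher mean with the shRNA. Of 15 glycolysis genes with a probe of their own, 12 had a lower mean, with a median of -0.15. Past the unadjusted criterion, where 1.85% of all probes were lower, were 2 of the 15. These were Aldoc (-1.70, adjusted p = 0.469) and Eno2 (-1.26, adjusted p = 0.461), the aldolase and enolase of neural tissue. The groups overlapped for both. Leaving out 1 array moved Aldoc between -2.27 and -1.14 and Eno2 between -1.69 and -0.91.

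Other housekeeping families were near 0. The 4 probes of Actg1 and Actb had differences of 0.02 to 0.04 at levels of 14.44 to 14.51, and Actb alone was at 0.02. Ribosomal proteins were the largest family, with 239 members and a median difference of -0.03 (-0.00 after centring). An unadjusted p under 0.05 was reached by 4 (1.67%), all higher with the shRNA, where 4.97% of all probes were higher at that p. Of these, 3 were probes of Rps26 with Gm6654, of which the first read 14.28, 14.24 and 14.25 against 14.01, 13.79 and 13.94, and the differences were 0.35, 0.36 and 0.39 (adjusted p = 0.376 to 0.383). The fourth was that of Rpl12 and Snora65, a small nucleolar RNA, at 0.38 (adjusted p = 0.401). The groups did not overlap on these 4. Of 11 translation factor probes, 4 had an unadjusted p under 0.05 and all were higher, where 4.97% of all probes were. Of the 4, 2 were of Eif4a3, a core protein of the exon junction complex, with Eif4a3l1, at 0.28 and 0.29. The other 2 were of the initiation factor gene Eif3j1 with Eif3j2, at 0.30 and 0.31. Respiratory chain subunits had 7 probes, all with a lower mean, at differences of -0.13 to -0.01.

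Among neuronal genes, 3 members listed voltage-gated sodium channels, and all had a lower mean. That of Scn3a and Scn1a read 7.78, 9.27 and 8.88 against 9.06, 9.44 and 9.60, a difference of -0.72 (SE 0.38, adjusted p = 0.590), with shRNA replicate 1 far below the rest. It was -0.29 without that array, and with the replicate number as a block its unadjusted p was under 0.05. That of Scn9a and Scn3a was at -0.40 (adjusted p = 0.472) and that of Scn2a, Scn9a and Scn3a at -0.35 (adjusted p = 0.781). The neuronal beta-tubulins Tubb2a and Tubb2b shared a probe at 11.94, 12.23 and 12.07 against 12.17, 12.73 and 12.54 (difference -0.40, adjusted p = 0.483), and their own probes were at -0.46 and -0.35. The other 6 tubulin members had a higher mean. The 43 zinc finger members had a median of -0.09, with 3 (6.98%) at an unadjusted p under 0.05, all lower, against 5.17% of all probes. They included 2 of Zfp983 with Gm10509, at -0.47 (adjusted p = 0.363) and, on the probe that also lists Zfp51, -0.31 (adjusted p = 0.435).

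A few members had differences over 0.5 with an unadjusted p above 0.05. The 2 probes of Alms1, a protein of the centrosome and the base of cilia, with Alms1-ps2 were at 0.64 and 0.65 (adjusted p = 0.515 and 0.505), and the first read 8.70, 8.33 and 8.31 against 8.46, 7.43 and 7.52. Scramble replicate 1 lay above shRNA replicates 2 and 3, and with the replicate number as a block both had an unadjusted p under 0.05. The probe of Top2a and Hibadh was at -0.69 (adjusted p = 0.571), with scramble replicate 1 at 8.34 against 7.45 and 6.87 for the other scramble arrays. It was -0.30 without scramble replicate 1. Top2a, a topoisomerase of dividing cells, also had 2 probes of its own, which differed in sign. The first read 12.85, 12.82 and 12.70 against 12.77, 12.05 and 11.58 (difference 0.66, adjusted p = 0.503), opposite in sign to the shared probe, and the second, at levels of 4.08 to 5.36, was at -0.40 (adjusted p = 0.735). Hibadh had 2 probes of its own as well. One was at -0.87 (adjusted p = 0.421), with no overlap and scramble replicate 1 highest at 6.00, as on the shared probe. The other was at -0.05 (adjusted p = 0.954).

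MicroRNA genes were listed on 61 members with 38 different value sets, and 47 had a lower mean, with a median of -0.15. The 2 with an unadjusted p under 0.05 were those of Mir344. The 9 probes that list 12 genes of the Mir467a, Mir467b and Mir467d kind held 1 set of values, namely 5.08, 4.09 and 5.01 with the Pbcas4 shRNA and 5.89, 4.82 and 4.88 with the scramble (difference -0.47, SE 0.37, adjusted p = 0.770). The 13 probes that list 14 Mir669 genes also held 1 set of values, in which shRNA replicate 2 read 4.71 and scramble replicate 1 read 6.40 (difference -0.37, SE 0.38, adjusted p = 0.847). For both, scramble replicate 1 was highest and shRNA replicate 2 lowest, and without scramble replicate 1 the differences were -0.13 and 0.02. Thus 22 of the 61 probes amount to 2 measurements.

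Small nucleolar and other small RNAs were on 63 members with 31 different value sets. The 24 probes of the Snord116 repeats, box C/D RNAs of the imprinted Prader-Willi region, had 7 value sets and differences of -0.21 to -0.14 and overlap on all. The 9 probes of the U1 small nuclear RNA genes, Rnu1b, had a median difference of 0.22 (adjusted p = 0.908 to 0.929), the 4 of Rnu3b, a U3 small nucleolar RNA, 0.25 and the 2 of Rn7s, the RNA of the signal recognition particle, -0.08.

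Families of other tissues showed values that differed little between the groups. Olfactory receptors were on 100 members at levels of 4.00 to 7.58, with a median difference of 0.00, a range of -0.27 to 0.20 and 0 at an unadjusted p under 0.05. Vomeronasal receptors were on 66, at 3.25 to 7.29, with 1 at an unadjusted p under 0.05, and immunoglobulin and T cell receptor genes on 58, at 3.28 to 9.18, also with 1. Multicopy genes of the sex chromosomes were on 100, those of oocyte and preimplantation embryo on 77 and the Speer genes of spermatogenesis on 18, with medians between -0.01 and 0.00 and 1, 0 and 0 at an unadjusted p under 0.05. With the scaling the medians changed sign for all of these families but the olfactory receptors. Of the 40 families, 1077 members belonged to at least 1 and 544 to none. Those 544 had a median of 0.01, with 3 higher and 3 lower past the unadjusted criterion.

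A shared probe and a probe that lists one of its symbols alone could be compared for 909 members and 627 symbols, in 2297 pairs. The differences of the 2 probes in a pair were apart by a median of 0.08. In 20 pairs the shared probe had a difference over 0.5, in 17 of these the other probe had the same sign, and in 2 it was also over 0.5. Of the 13 members past the unadjusted criterion, 6 had a symbol with a probe of its own. Slc10a4 alone read 12.49, 11.89 and 12.02 against 12.74, 12.59 and 12.69, a difference of -0.54 (adjusted p = 0.413) beside -0.52 on the shared probe. Ube2f alone was at 0.41 (adjusted p = 0.431) and Gxylt1 alone at 0.42, both with the sign of the shared probe. Wdr77 alone was at 0.34 (12.62, 12.21 and 12.45 against 12.33, 11.97 and 11.97, adjusted p = 0.511) beside -0.56 on the probe shared with Ovgp1, so the 2 probes differed in sign. For the probe of Zfp442, Zfp937 and 3300002I08Rik at -0.56, Zfp442 alone was at -0.39 and 3300002I08Rik alone at 0.00. Which of its symbols a shared probe reports cannot be told apart from these values.

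**Figure D4:**
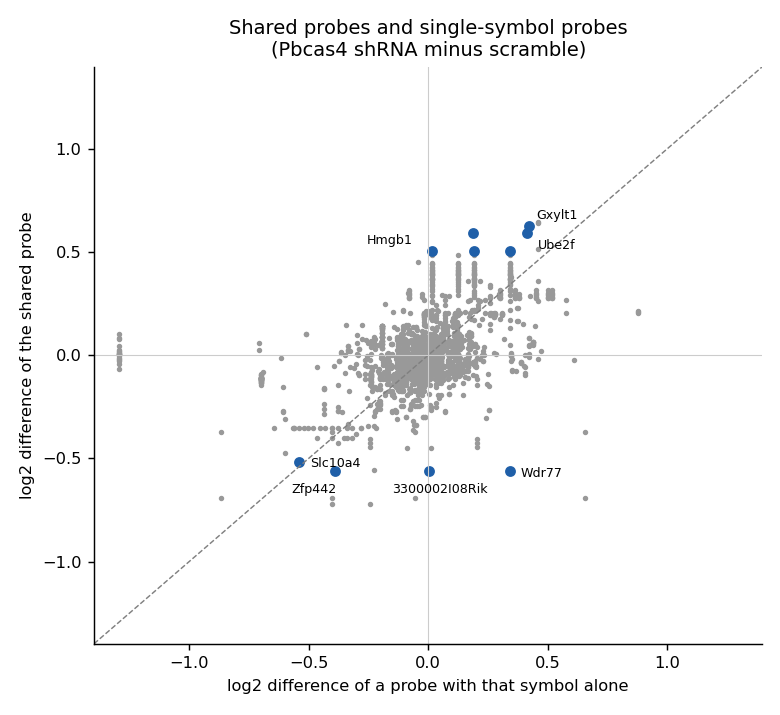
Log2 difference, Pbcas4 shRNA minus scramble, of a shared probe (y axis) against that of a probe listing one of its symbols alone (x axis), for 2297 pairs in grey, with the pairs of the 13 members past the unadjusted criterion in blue and equality as a dashed line. Slc10a4 sits near the line at -0.54 and -0.52, Hmgb1 at 0.01 and 0.50, and Wdr77 on opposite sides of 0.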

How the data were processed

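RNA from 3 Pbcas4 shRNA and 3 scramble cultures was hybridised to Affymetrix Mouse Gene 1.0 ST arrays. The values deposited by the authors are on the log2 scale, 1 per probe and array, and how background, summarization and normalization were handled is not given in the sources used here. Symbols came from GEO's platform annotation, which can be old, and a probe was kept as shared if it listed 2 or more. RefSeq tables (GRCm38.p6) gave gene types, neighbours and sequences.

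All 35556 probes were fitted together by lmFit and eBayes of limma (version 3.58.1, under R 4.3.3) with 1 term for the construct. Tests were two-sided, p-values were adjusted by Benjamini-Hochberg over the whole table, and the fit was tested on simulated data. The methods' variance between conditions over 0.5 was read as a log2 difference over 0.5. Families were 40 patterns on the symbols, and 10 lists of pathway and marker genes were described by counts and medians, each gene by its single-symbol probe of highest mean. Members and lists were chosen with earlier results of these data known. The rule for naming covered all histone, MHC class I and Gapdh probes (by range where over 10). It also covered the 10 members of lowest p in each direction with a difference over 0.5. Further, it covered up to 4 probes of lowest p in every other family of 3 or more, and list genes past the unadjusted criterion. Not all of these are named in the text, and other named probes and genes were chosen after their values were seen.

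The labels give both groups replicate numbers 1 to 3. With each group's mean removed, the correlations between equally numbered arrays were 0.291, 0.137 and 0.103 over probes, while shRNA replicate 2 and scramble replicate 3 reached 0.199. All 3 being over 0.1, the numbers were treated as pairs in an alternative with a block. The fit was repeated without each array in turn, without dim probes, without the size criterion, with array weights, with a robust and trended prior, after centring each array, and after quantile normalization. Added after the data were seen were 1 probe for each set of 6 values and the core histones without H3.3. The number of arrays limits the precision.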

Additional observations from a re-analysis of the deposited data

How the results depend on the processing

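No shared probe was called by limma, nor under quantile normalization, centring, a trended and robust variance, the dim-probe filter, the replicate block, any left-out array or the dropped size criterion, where 64 members were higher and 31 lower at an unadjusted p under 0.05. Array weights called 38 shared probes (2.34%, 24 higher and 14 lower) among 1980 of all probes (5.57%). Their estimation stopped before its tolerance, with weights from 0.353 for scramble replicate 1 to 5.32 for shRNA replicate 3, and the cause of the calls was not tested. At an unadjusted p under 0.05 with a difference over 0.5, array weights gave 28 higher and 18 lower members, against 6 and 7. Centring gave 14 and 4, and the dim-probe filter, which leaves out probes under the median level, 4 lower. Leaving out 1 array gave 1 to 45 higher and 4 to 15 lower members, and the cause was not tested. The Gapdh median moved from -0.051 to -0.025 with centring.

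The medians of the shared probes, core histones, linker histone and MHC class I moved by less than the spread between replicates under every alternative run, including those added. Leaving out 1 array gave 0.11 to 0.29 for the core histones, 0.04 to 0.27 for the linker histone, -0.38 to -0.13 for MHC class I, -0.060 to -0.037 for Gapdh and -0.019 to 0.014 for all shared probes. Of the 13 probes past the unadjusted criterion, those of Cpne1, Gprasp2 and Mir344 stayed past it under every alternative that kept them, and 0 changed sign. The other probes stayed past it under as few as 4 of 12 alternatives (Wdr77) and as many as 11 of 12 (Ube2f). The replicate block took 1 of the 13, that of Gxylt1, out of the criterion, and put in 4, those of Alms1 (2 probes), of Scn3a and Scn1a, and of Gm2011 and Abhd18 (difference -0.56), for 7 higher and 9 lower members with 0 adjusted calls.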
